A study of Mus musculus with 21 samples.

Results

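DNA damage sensing and repair genes were examined in the injured mouse brain. The 36 genes listed are known sensors, checkpoint kinases and repair enzymes, and 35 of them had a probe that the probe annotation paired with their symbol, among the 757 probes of the panel; Ercc6 had no such probe and was skipped. All 35 passed the filter on low values that left 740 probes for testing. Cells meet DNA damage with the kinases ATM and ATR, which sense double-strand breaks and stalled replication and act through CHK2 and CHK1, and the lesions are then handled by separate routes. Oxidized bases and single-strand breaks go to base excision repair, bulky adducts to nucleotide excision repair, mispaired bases to mismatch repair, and double-strand breaks to end joining or, in cells that have copied their DNA, to homologous recombination. Neurons have left the cell cycle and rely largely on the routes that need no sister copy, while dividing glia and immune cells also use the replication-coupled ones.

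RNA came from the right hemisphere of male C57BL6J mice and was measured with the NanoString nCounter Mouse Neuroinflammation panel, which counts single transcripts with color-coded probes and no amplification. There were 21 mice in 7 groups of 3. The CR2-Crry TBI groups of days 3, 7 and 28 had a controlled cortical impact through a craniotomy over the right hemisphere, an open-head form of traumatic brain injury (TBI). They received CR2-Crry intravenously 1 h post injury (pi), a complement inhibitor that a fragment of complement receptor 2 directs to sites where C3 has been activated, at 16 mg/kg. The PBS TBI groups of days 3, 7 and 28 had the same injury and PBS as vehicle. Sham mice, given as vehicle (PBS) in the labels, had anesthesia and a scalp incision with no craniotomy or impact. Mice were 12 weeks old on day 3, 13 weeks on day 7 and 16 weeks on day 28, and the 3 sham mice were 12, 13 and 16 weeks old. The day 28 mice had 3 further intraperitoneal doses, so the day 28 groups differ from the earlier ones in dosing as well as in time. Age, which differed between the injured groups and among the sham mice, was not tested.

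Values are normalized counts as deposited, scaled by the authors to housekeeping genes, and changes are log2 changes with their SE from a limma fit to all 21 samples; a gene was called at a Benjamini-Hochberg adjusted p under 0.05 over the 740 probes. Total counts, as the steps in the values give them, ran between 750585 and 1023041 per sample. On this scaling the samples' median values were 294 to 424 in injured mice and 242 to 257 in sham mice. Centering each sample on its median therefore lowered every PBS TBI against sham change, by 0.60 (log2) for day 3, 0.73 for day 7 and 0.34 for day 28, and directions are given on both scalings below. The 10 neuron markers of the panel summed to 45628 to 51064 in PBS TBI mice and 57295 to 58501 in sham mice, while the 13 microglia and macrophage markers summed to 21558 to 58112 in PBS TBI mice and 7856 to 9857 in sham mice. Astrocyte markers (5) summed to 21225 to 29285 in PBS TBI mice and 16131 to 16981 in sham mice. Oligodendrocyte markers (7) summed to 12911 to 19229 and 10678 to 13676, and endothelial markers (6) to 2652 to 3825 and 2451 to 2637, in PBS TBI and sham mice, so the labelled tissue carried the markers of brain cells. The tissue was bulk, so more transcripts per cell and more cells of a type cannot be told apart, and the part of this shift in cell markers in the results below was not tested.

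On the deposited scaling the injured hemisphere had higher levels of many damage and repair transcripts, most on day 3. PBS TBI against sham gave 19 of the 35 genes higher and 1 lower on day 3, 16 higher and 1 lower on day 7, and 10 higher and 0 lower on day 28. Over all 740 probes, 51.6% were higher and 13.2% lower on day 3, 57.3% and 9.46% on day 7, and 44.5% and 8.11% on day 28, so the share of repair genes called higher was close to the panel's on day 3 and below it on the later days. The median log2 change of the 35 genes was 0.35 on day 3, 0.20 on day 7 and 0.15 on day 28, beside 0.30, 0.36 and 0.21 for all probes. The 3 days share the sham samples. On the deposited scaling PBS TBI mice lay wholly above sham for 398, 441 and 370 of the 740 probes on days 3, 7 and 28. They lay wholly below sham for 112, 93 and 88 probes. Among the 35 genes these counts were 19, 17 and 15 above and 2, 2 and 1 below, so such a separation was common on the panel. The day 7 count of 16 fell to 10 without PBS TBI replicate 1, and the day 28 count of 10 fell to 6 without sham replicate 1 or 2 or PBS TBI replicate 3.

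Only a small set stood above the general rise of the panel. With median-centered samples the counts on day 3 were 5 higher and 19 lower, against 26.5% higher and 52.3% lower over all probes. On day 7 they were 2 higher and 26 lower (25.9% and 54.5% of all probes), and on day 28 they were 1 and 12 (21.2% and 38% of all probes). The genes called higher on both scalings were Mgmt, Fancd2, Pole, Chek2 and Dna2 on day 3, Mgmt and Chek2 on day 7, and Mgmt alone on day 28. Ddb2 on day 3 and Rad1 on day 7 were called lower on both. Scaling every sample to the same sum of values, added after the data were seen, gave 10 higher and 7 lower on day 3 (41.2% and 28.9% of all probes), 3 and 13 on day 7 (35.4% and 34.5%) and 3 and 1 on day 28 (34.2% and 17% of all probes), and each of the changes just named kept its direction and passed. Of the genes called higher on the deposited scaling, 6 on day 3, 10 on day 7 and 0 on day 28 were called lower after centering, so their direction depends on the scaling.

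**Figure D1:**
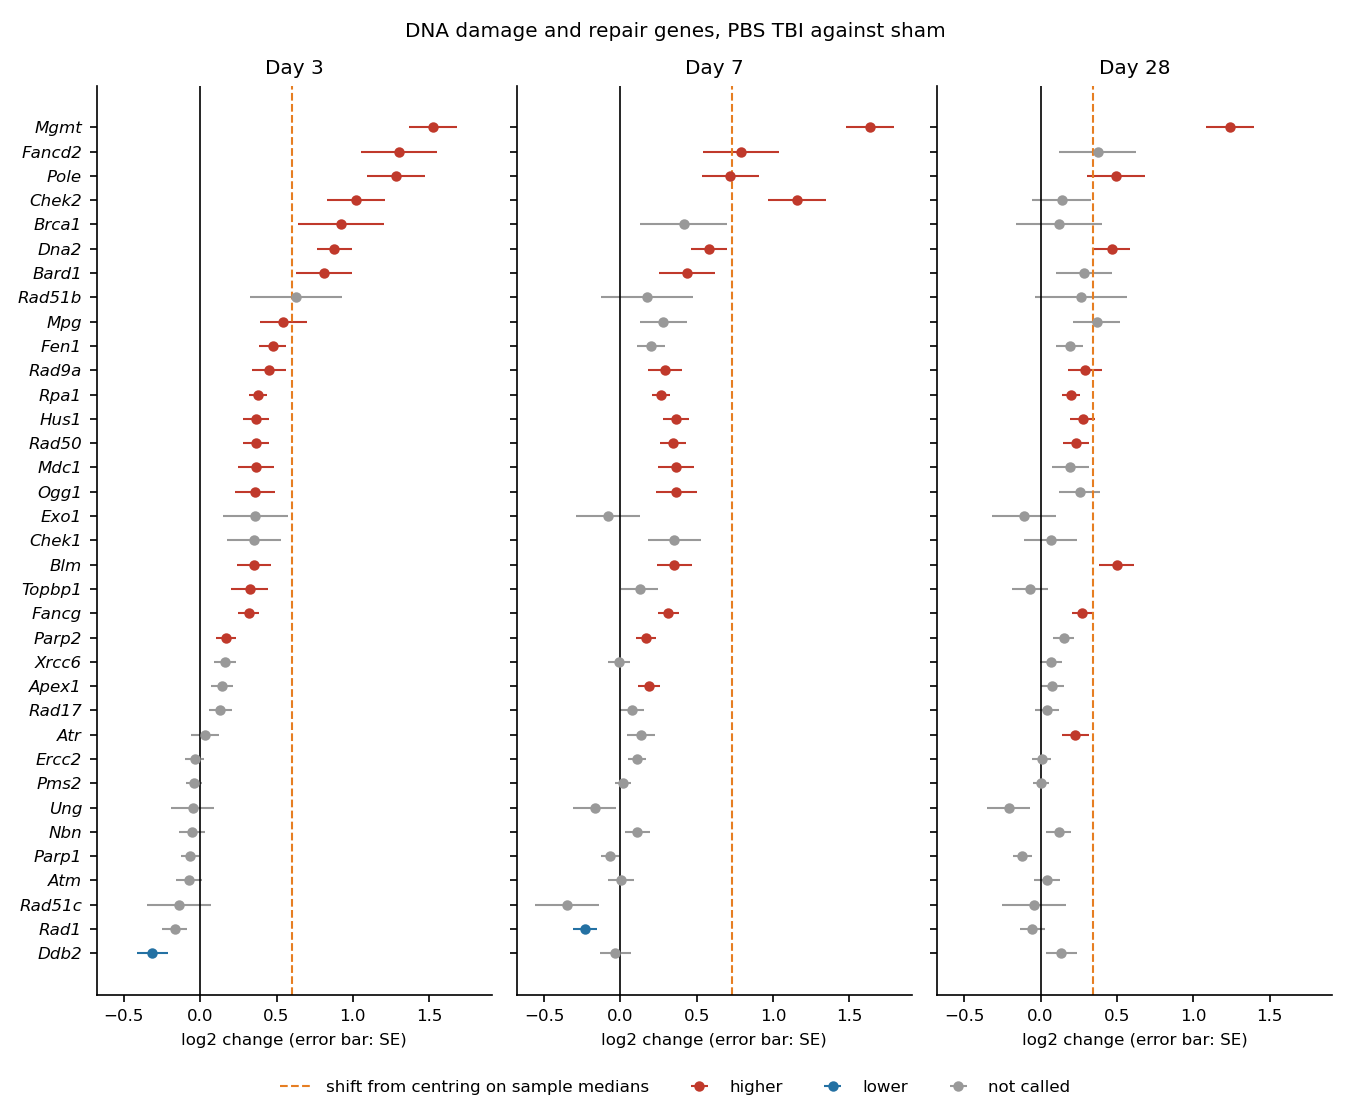
Log2 change of each of the 35 genes in PBS TBI against sham mice on days 3, 7 and 28 (dots, with SE bars; n = 3 per group; colors mark the limma call) on the deposited scaling. The vertical dashed line is the shift between the scalings (0.60, 0.73 and 0.34), and only genes to the right of it stay above 0 after centering; Mgmt lies to the right of it on all 3 days.

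The 5 promoters below belong to the members with the highest day 3 changes for which a RefSeq promoter window was at hand, and they are shown because replication-coupled repair genes are classic targets of E2F factors. Each window runs from 250 bases before to 50 bases after the annotated start, in GRCm38.p6 coordinates and 5′ to 3′ on the gene's strand. Capitals mark a match to an E2F motif, taken as TTCCCGC or TTCGCGC or TTGGCGC or TTGCCGC on either strand. The windows are chr7:136894336-136894635 (plus strand) for Mgmt, chr5:110839733-110840032 (plus) for Chek2, chr11:101551906-101552205 (minus) for Brca1, chr10:62946779-62947078 (plus) for Dna2, and chr1:71102923-71103222 (minus) for Bard1.
Mgmt: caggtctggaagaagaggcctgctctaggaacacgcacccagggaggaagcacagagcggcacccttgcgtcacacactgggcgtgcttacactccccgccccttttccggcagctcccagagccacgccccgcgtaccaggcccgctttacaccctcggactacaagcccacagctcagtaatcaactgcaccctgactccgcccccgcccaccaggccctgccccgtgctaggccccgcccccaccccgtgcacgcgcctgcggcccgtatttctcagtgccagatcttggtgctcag
Chek2: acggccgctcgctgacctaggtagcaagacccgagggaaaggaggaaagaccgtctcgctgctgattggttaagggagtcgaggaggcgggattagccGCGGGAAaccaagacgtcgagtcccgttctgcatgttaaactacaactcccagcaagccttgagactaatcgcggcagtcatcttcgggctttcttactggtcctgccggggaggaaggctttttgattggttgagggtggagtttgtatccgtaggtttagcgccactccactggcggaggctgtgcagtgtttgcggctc
Brca1: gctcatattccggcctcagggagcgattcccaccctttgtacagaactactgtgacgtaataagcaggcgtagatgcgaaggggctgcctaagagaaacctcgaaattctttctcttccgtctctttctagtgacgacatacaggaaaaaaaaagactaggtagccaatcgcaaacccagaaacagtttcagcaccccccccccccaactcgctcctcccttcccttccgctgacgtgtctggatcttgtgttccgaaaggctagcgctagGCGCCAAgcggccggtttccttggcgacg
Dna2: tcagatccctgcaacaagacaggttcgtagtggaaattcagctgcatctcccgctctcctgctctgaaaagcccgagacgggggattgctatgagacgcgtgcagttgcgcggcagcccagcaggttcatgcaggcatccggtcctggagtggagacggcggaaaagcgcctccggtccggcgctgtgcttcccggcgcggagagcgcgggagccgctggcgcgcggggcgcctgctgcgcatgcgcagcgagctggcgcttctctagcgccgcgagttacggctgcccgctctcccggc
Bard1: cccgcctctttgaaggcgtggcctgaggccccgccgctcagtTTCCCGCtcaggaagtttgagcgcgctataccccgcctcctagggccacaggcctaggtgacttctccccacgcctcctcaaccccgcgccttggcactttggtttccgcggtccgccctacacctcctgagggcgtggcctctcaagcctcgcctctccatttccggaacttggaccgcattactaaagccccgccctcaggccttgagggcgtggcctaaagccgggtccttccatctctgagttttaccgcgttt

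The matches lay at -152 in Chek2, at +22 in Brca1 and at -208 in Bard1, counted from the start, and the windows of Mgmt and Dna2 held none. Windows were found for 28 of the 35 genes, and 15 of the 28 (53.6%) held an E2F match in any window of the gene, beside 9.57% of all 32851 RefSeq windows and 19.9% of the windows with at least 60% C and G. On day 3, 8 of the 15 genes with a match and 7 of the 13 without one were called higher in PBS TBI against sham. The cell cycle homology element TTTGAA was present in any window of 14.3% of the 28 genes, beside 17.9% of all windows and 5.79% of those with at least 60% C and G. The CCAAT box, spelled CCAAT, was present for 46.4% of the genes, beside 37.4% and 31.6%. Of the 28 genes 5 had 2 windows, while the background shares count single windows. These are matches of letters, not sites of binding.

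Direct reversal of damage had 1 gene on the panel, and it was the 1 gene of the 35 called higher on all 3 days and on both scalings. Mgmt encodes the methyltransferase that removes alkyl groups from the O6 position of guanine and is used up in doing so. It measured 103, 91.8 and 102 in PBS TBI mice on day 3, 124, 90.7 and 107 on day 7 and 79.1, 93.5 and 71.9 on day 28, against 29.9, 35.8 and 37.7 in sham mice. Every PBS TBI value was above every sham value on each day. The log2 change was 1.52 ± 0.16 on day 3 (2.87-fold, adjusted p = 6.84e-08), 1.63 ± 0.16 on day 7 (3.10-fold, adjusted p = 2.16e-08) and 1.24 ± 0.16 on day 28 (2.36-fold, adjusted p = 2.30e-06). After centering it was 0.92, 0.91 and 0.90, with adjusted p = 5.28e-06 on day 3, adjusted p = 5.92e-06 on day 7 and adjusted p = 1.59e-05 on day 28, so on that scaling the size was nearly the same on the 3 days. The drop between days 7 and 28 on the deposited scaling (-0.39 ± 0.16, adjusted p = 0.0491) was -0.0052 after centering (adjusted p = 0.973). It was lost when any 1 of 4 of the mice compared was left out: replicate 1 or 3 of either day.

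Pole, the catalytic subunit of the polymerase that copies the leading strand, was highest on day 3. It measured 129.6, 99.3 and 87.9 in PBS TBI mice on day 3, 82.7, 64.1 and 66.4 on day 7 and 63.9, 57.8 and 59.5 on day 28, against 40.1, 41.1 and 47.7 in sham mice. The PBS TBI mice lay above all sham mice on each day, with the widest gap on day 3. The change was 1.28 ± 0.19 on day 3 (adjusted p = 6.37e-06), 0.72 ± 0.19 on day 7 (adjusted p = 0.00227) and 0.49 ± 0.19 on day 28 (adjusted p = 0.0339). Centering left 0.68 ± 0.20 on day 3 (adjusted p = 0.00439), -0.0079 on day 7 (adjusted p = 0.976) and 0.15 on day 28 (adjusted p = 0.522). Day 7 was lower than day 3 in PBS TBI mice (-0.56 ± 0.19, adjusted p = 0.0365; centered -0.69, adjusted p = 0.0162). That call was lost without replicate 1 or 2 of day 3 or without replicate 2 or 3 of day 7, and the day 28 call against sham was lost without any 1 of the 3 PBS TBI mice or without sham replicate 1 or 2.

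Homologous recombination and the Fanconi anaemia pathway, which repair broken and cross-linked DNA with a sister copy as template, had 10 genes measured. On day 3, 7 of them were higher and 0 lower, with a median log2 change of 0.50. On day 7, 6 were higher and on day 28, 4, with medians of 0.33 and 0.27. After centering 2 were higher and 3 lower on day 3, 0 higher and 5 lower on day 7, and none passed in either direction on day 28. Over all probes 51.6% were higher and 13.2% lower on day 3, 57.3% and 9.46% on day 7, and 44.5% and 8.11% on day 28. The medians over all probes were 0.30, 0.36 and 0.21. With centering 26.5%, 25.9% and 21.2% of all probes were higher and 52.3%, 54.5% and 38% lower on the 3 days.

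Fancd2, whose monoubiquitinated protein marks cross-linked DNA for repair, had the largest change of the 10 on day 3. It measured 53.5, 42.1 and 38.7 in PBS TBI mice on day 3, 38.3, 22.1 and 35.8 on day 7 and 21.3, 22.2 and 26.9 on day 28, against 16.5, 18.4 and 19.2 in sham mice. No PBS TBI value fell within the sham range, but the counts behind these values were low, with 20 molecules in the lowest of these samples. The change was 1.30 ± 0.25 on day 3 (adjusted p = 1.37e-04; centered 0.70, adjusted p = 0.0123). It was 0.79 ± 0.25 on day 7 (adjusted p = 0.00914; centered 0.062, adjusted p = 0.817), and 0.37 ± 0.25 on day 28, where it did not pass (adjusted p = 0.223). The day 7 call was lost without replicate 1 of that day.

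Dna2, a nuclease and helicase that trims DNA ends and flaps, had nearly the same value in the 3 mice of day 3. It measured 97.7, 93.9 and 94.2 in PBS TBI mice on day 3, 87.9, 76.3 and 69.5 on day 7 and 70.0, 71.3 and 73.8 on day 28, against 56.6, 51.6 and 47.7 in sham mice. All PBS TBI values were above the sham values. The change was 0.88 ± 0.12 on day 3 (adjusted p = 1.65e-06), 0.58 ± 0.12 on day 7 (adjusted p = 1.95e-04) and 0.47 ± 0.12 on day 28 (adjusted p = 0.00244). Centered changes were 0.28 (adjusted p = 0.0383), -0.15 (adjusted p = 0.253) and 0.13 (adjusted p = 0.36), so day 3 alone was called on both scalings and the day 7 sign turned.

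Brca1 and Bard1 encode the partners of a ubiquitin ligase that promotes homologous recombination. Brca1 measured 42.2, 47.5 and 63.8 in PBS TBI mice on day 3, 33.1, 36.5 and 36.8 on day 7 and 40.6, 16.4 and 36.5 on day 28, against 25.2, 29.7 and 25.1 in sham mice. Bard1 measured 73.0, 72.3 and 72.2 in PBS TBI mice on day 3, 63.1, 49.8 and 55.1 on day 7 and 43.6, 60.7 and 48.0 on day 28, against 51.9, 43.7 and 31.0 in sham mice. Both lay wholly above sham on day 3 and overlapped it on day 28. On day 3 Brca1 changed by 0.92 ± 0.28 (adjusted p = 0.00749) and Bard1 by 0.81 ± 0.18 (adjusted p = 6.60e-04), and neither passed after centering (Brca1 0.32, adjusted p = 0.312; Bard1 0.21, adjusted p = 0.292). On day 7 Bard1 was called higher (0.43 ± 0.18, adjusted p = 0.0438) although its groups overlapped, its centered change was -0.30, and the call was lost without PBS TBI replicate 1 or 3 or without sham replicate 2 or 3.

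Blm, the helicase mutated in Bloom syndrome in humans, had its highest change against sham on day 28. It measured 108, 95.0 and 86.9 in PBS TBI mice on day 3, 102, 104 and 83.8 on day 7 and 113, 97.3 and 110.3 on day 28, against 71.5, 76.0 and 78.7 in sham mice. The PBS TBI values were above all sham values on each day. The change was 0.35 ± 0.11 on day 3 (adjusted p = 0.0105), 0.35 ± 0.11 on day 7 (adjusted p = 0.0104) and 0.50 ± 0.11 on day 28 (adjusted p = 0.00128). Centered values were -0.25 (adjusted p = 0.0677), -0.38 (adjusted p = 0.00804) and 0.16 (adjusted p = 0.274), so day 7 was called in opposite directions on the 2 scalings. On the deposited scaling the day 28 to day 7 difference was not called in PBS TBI mice. The mean centered log2 value of Blm was -2.17 on day 7 and -1.64 on day 28 in these mice. In that comparison of days 5 of the 10 genes were called higher after centering, beside 46.8% of all probes. The day 3 call was lost without PBS TBI replicate 1 and the day 7 call without replicate 2.

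Of the remaining genes of this route, Rpa1 and Fancg were called. Rpa1, the large subunit of the protein that coats single-stranded DNA, measured 1301, 1136 and 1247 in PBS TBI mice on day 3, 1184, 1131 and 1094 on day 7 and 1042, 1075 and 1140.4 on day 28, against 896, 959 and 979 in sham mice. Fancg, a subunit of the Fanconi core complex, measured 253, 250.4 and 267 in PBS TBI mice on day 3, 243, 252 and 275 on day 7 and 232, 262 and 254 on day 28, against 195, 207 and 217 in sham mice. Both stood above sham in every PBS TBI mouse and were called higher on the 3 days, Rpa1 by 0.38, 0.27 and 0.20 and Fancg by 0.32, 0.31 and 0.27. After centering both were called lower on day 3 (-0.22 and -0.29) and on day 7 (-0.46 and -0.41). Exo1, a 5′ to 3′ exonuclease, and Rad51b and Rad51c were not called on any day on the deposited scaling. In PBS TBI mice the mean centered log2 value of Rad51c was -2.52, -2.86 and -2.16 on days 3, 7 and 28, against -1.78 in sham mice. For Exo1 it was -3.60, -4.16 and -3.80, against -3.35. For Rad51b it was -3.78, -4.36 and -3.88, against -3.81. Rad51b rested on as few as 12 counted molecules, and its day 3 change of 0.62 ± 0.30 did not pass (adjusted p = 0.0765).

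**Figure D2:**
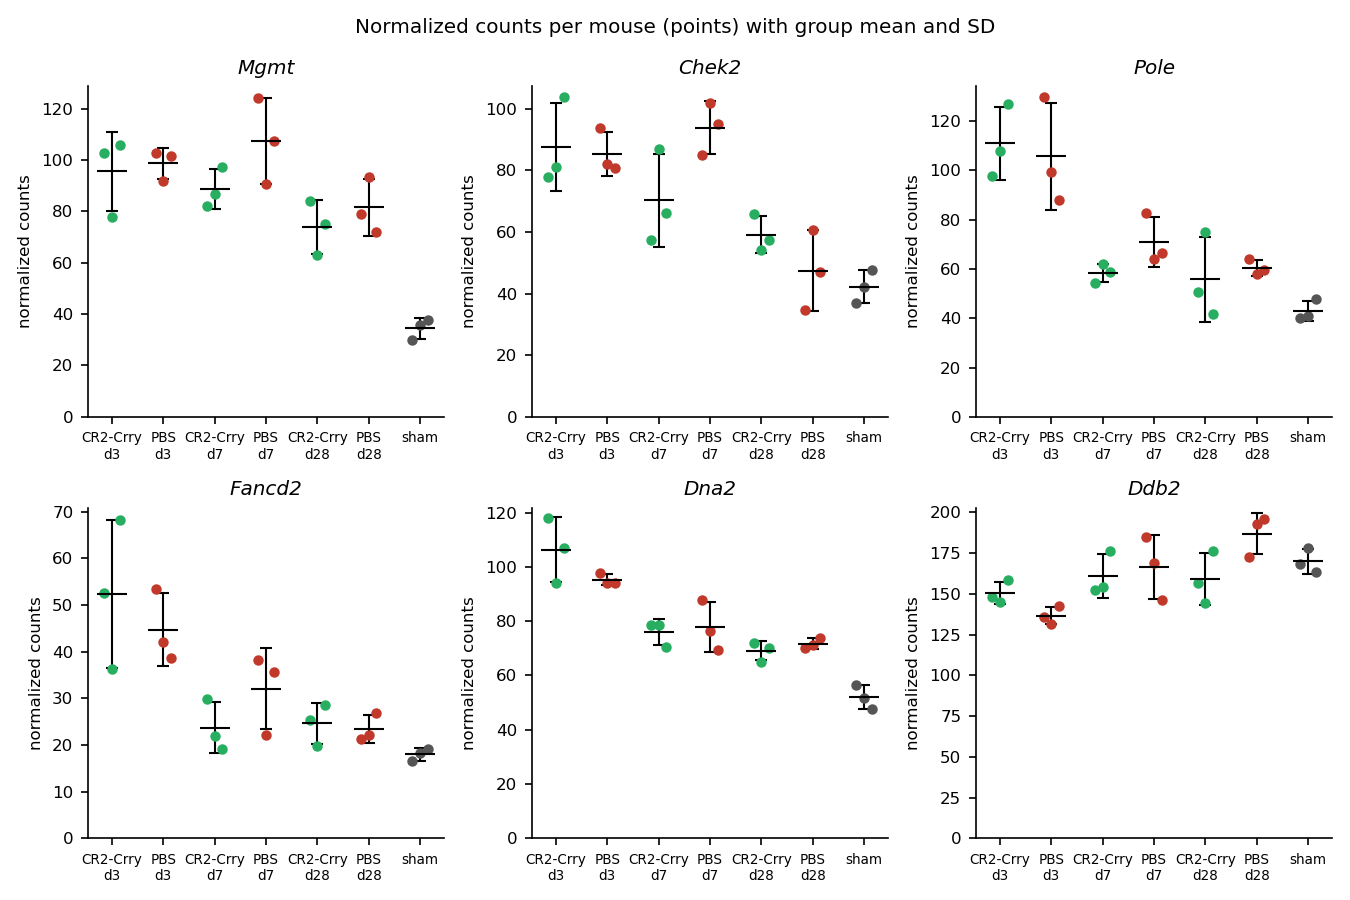
Normalized count of selected genes in each of the 21 mice by group (points are mice; bars are group means with SD, n = 3). Mgmt is above the sham range of 29.9 to 37.7 in all injured mice, and Chek2 in PBS TBI mice overlaps the sham range on day 28 only.

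Damage signalling and checkpoint genes numbered 12. Of these, 6 were higher and 0 lower on day 3, 5 higher and 1 lower on day 7, and 4 higher and 0 lower on day 28, with medians of 0.34, 0.21 and 0.13. Centered counts were 1 higher and 8 lower on day 3, 1 higher and 10 lower on day 7, and 0 higher and 5 lower on day 28. Over all probes 51.6% were higher and 13.2% lower on day 3, 57.3% and 9.46% on day 7, and 44.5% and 8.11% on day 28. The medians over all probes were 0.30, 0.36 and 0.21. With centering 26.5%, 25.9% and 21.2% of all probes were higher and 52.3%, 54.5% and 38% lower on the 3 days.

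Chek2, the effector kinase downstream of ATM, was the 1 gene of this group that rose on both scalings, and it did so on days 3 and 7. Chek2 measured 93.6, 82.0 and 80.6 in PBS TBI mice on day 3, 84.8, 102 and 95.0 on day 7 and 34.5, 60.7 and 47.0 on day 28, against 37.0, 42.0 and 47.7 in sham mice. Days 3 and 7 lay wholly above sham, whereas the day 28 values straddled it. The change was 1.02 ± 0.19 on day 3 (2.03-fold, adjusted p = 1.04e-04; centered 0.42, adjusted p = 0.0341) and 1.16 ± 0.19 on day 7 (2.23-fold, adjusted p = 2.61e-05; centered 0.43, adjusted p = 0.0304). On day 28 it was 0.14 ± 0.19 (adjusted p = 0.573). Day 28 against day 7 gave -1.02 ± 0.19 (adjusted p = 2.38e-04), and -0.63 after centering (adjusted p = 0.00391). In that comparison of days 2 of the 35 genes were lower and 0 higher, beside 39.1% lower and 6.08% higher over all probes. After centering the direction of the count turned, with 23 higher and 1 lower (Chek2), beside 46.8% and 16.9% of all probes.

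Chek1, the matching kinase of the ATR arm, had changes of 0.35 ± 0.18 on day 3 and 0.35 ± 0.18 on day 7 and was not called on any day (adjusted p = 0.0849 and adjusted p = 0.0827 on those days). The kinases at the head of the 2 arms had small changes on the deposited scaling and were lower after centering. Atm had changes of -0.074, 0.0027 and 0.041 on days 3, 7 and 28 and was not called, while its centered changes of -0.68, -0.73 and -0.30 were all called lower. Atr measured 251, 249 and 252 in PBS TBI mice on day 3, 291, 274 and 245 on day 7 and 285, 275 and 303 on day 28, against 226, 254 and 256 in sham mice. After centering it was called lower on day 3 (-0.57) and day 7 (-0.59). On the deposited scaling it was called higher on day 28 alone (0.23 ± 0.090, adjusted p = 0.041), with a centered change of -0.11 (adjusted p = 0.312), and the call was lost without sham replicate 1 or 2 or without PBS TBI replicate 1 or 3.

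The checkpoint clamp of Rad9a, Hus1 and Rad1 is a ring of 3 proteins that is loaded at damaged DNA with the help of Rad17, and on the deposited scaling Rad1 was the 1 of these genes with a negative change on each day. Rad1 measured 296, 279.6 and 301 in PBS TBI mice on day 3, 291, 289.6 and 259 on day 7 and 283, 329 and 340.5 on day 28, against 327, 315 and 344 in sham mice. Days 3 and 7 lay below all sham values. Its change was -0.17 ± 0.080 on day 3 (adjusted p = 0.0721) and -0.23 ± 0.080 on day 7 (adjusted p = 0.015), and the day 7 call was lost without sham replicate 3 or PBS TBI replicate 3. Centered changes of Rad1 were -0.77, -0.96 and -0.39 on the 3 days, all called lower. Hus1 was called higher on each day, by 0.37, 0.37 and 0.28, and Rad9a by 0.45, 0.29 and 0.29, but after centering Hus1 was -0.24, -0.36 and -0.065 and Rad9a -0.15, -0.44 and -0.053. The difference of Rad1 from its partners within a day was not tested. Rad17 was not called on any day on the deposited scaling, with changes of 0.13, 0.075 and 0.041. Its mean centered log2 value was -0.39, -0.58 and -0.22 in PBS TBI mice on the 3 days, below the 0.079 of sham mice.

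Rad50, a subunit of the complex that senses double-strand breaks, measured 224, 233 and 252 in PBS TBI mice on day 3, 244, 219 and 235 on day 7 and 223, 226 and 198 on day 28, against 182, 180.1 and 188 in sham mice. It was above sham in all PBS TBI mice and called higher on the 3 days (0.37, 0.34 and 0.23), with centered changes of -0.24, -0.39 and -0.11. Nbn, which joins the same complex, was not called on any day on the deposited scaling. Its mean centered log2 value was -0.77, -0.73 and -0.33 in PBS TBI mice on days 3, 7 and 28, below the -0.11 of sham mice. Topbp1, an activator of ATR, measured 203, 190.0 and 272 in PBS TBI mice on day 3, against 175, 170.4 and 178 in sham mice. It was called higher on day 3 alone (0.33 ± 0.12, adjusted p = 0.0232), was called lower after centering (-0.28, adjusted p = 0.0299), and lost the call without PBS TBI replicate 3, its highest value, or without sham replicate 2. Mdc1, a scaffold at broken DNA, was higher on day 3 (0.36) and day 7 (0.36), with centered changes of -0.24 and -0.36, and lost the call without PBS TBI replicate 3 of day 3 or replicate 2 of day 7.

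Base excision and single-strand break repair had 7 genes. On day 3, 4 were higher, on day 7, 3, and on day 28, 0, and 0 were lower on each of the days. After centering none was higher, and 4, 7 and 4 were lower on days 3, 7 and 28. Over all probes 51.6% were higher and 13.2% lower on day 3, 57.3% and 9.46% on day 7, and 44.5% and 8.11% on day 28. With centering 26.5%, 25.9% and 21.2% of all probes were higher and 52.3%, 54.5% and 38% lower on the 3 days. Fen1, the endonuclease that removes flaps in long-patch repair and in replication, had 0.47 ± 0.091 on day 3 (adjusted p = 1.30e-04), the lowest adjusted p of the group on that day, but its centered change was -0.13 (adjusted p = 0.226). It was lower on day 7 than on day 3, with 205, 203 and 232 on day 7 against 290.1, 235 and 249 on day 3 in PBS TBI mice (-0.27 ± 0.091, adjusted p = 0.0363; centered -0.40, adjusted p = 0.00472). The call was lost without PBS TBI replicate 1 of day 3 or replicate 1 or 2 of day 7.

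Of the 3 glycosylases, which cut out damaged bases, 2 were called. Mpg, which removes alkylated bases, was higher on day 3 (0.55 ± 0.15, adjusted p = 0.00413; centered -0.057). Ogg1, which removes 8-oxoguanine, was called higher on day 3 (0.36 ± 0.13, adjusted p = 0.0232) and day 7 (0.37 ± 0.13, adjusted p = 0.0206), with centered changes of -0.24 and -0.36. Its day 3 call was lost without sham replicate 1 or 3 or PBS TBI replicate 1 or 3, and its day 7 call without sham replicate 1 or 3 or PBS TBI replicate 1 or 2. Ung, which removes uracil, was not called on any day (-0.050, -0.17 and -0.21) and was called lower on all 3 after centering.

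Parp1 and Parp2 encode the poly(ADP-ribose) polymerases that respond to single-strand breaks. Parp1 had changes of -0.065, -0.068 and -0.12 and was not called, and its centered changes of -0.67, -0.80 and -0.46 were called lower on all 3 days. Parp2 measured 503, 529 and 550.5 in PBS TBI mice on day 3 and 532, 574 and 479 on day 7, against 462, 452 and 493 in sham mice. It was called higher on both days by a small amount (0.17 ± 0.068, adjusted p = 0.0366, and 0.17 ± 0.068, adjusted p = 0.0367), and lower after centering (-0.43 and -0.56). Apex1, the endonuclease that cuts at sites without a base, measured 437, 433 and 444 in PBS TBI mice on day 7, against 406, 391 and 359 in sham mice. Its day 7 change of 0.19 ± 0.073 (adjusted p = 0.0305) was -0.54 after centering. The Parp2 calls were lost without sham replicate 1 or 2, without PBS TBI replicate 2 or 3 of day 3 or without replicate 1 or 2 of day 7, and the Apex1 call without sham replicate 3 or any 1 of the 3 PBS TBI mice.

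Nucleotide excision repair held the 1 gene that fell on day 3 on the deposited scaling; after centering 19 of the 35 were called lower, Ercc2 of the same route included. Ddb2, which recognizes bulky and ultraviolet lesions and is a p53 target in human cells, measured 136, 132 and 142 in PBS TBI mice on day 3, 185, 169 and 146 on day 7 and 172, 193 and 196 on day 28, against 168, 178 and 163 in sham mice. Day 3 lay below all sham values and the later days overlapped them. The change was -0.31 ± 0.10 on day 3 (adjusted p = 0.0103; centered -0.92, adjusted p = 1.95e-08). It was -0.033 ± 0.10 on day 7 (adjusted p = 0.797) and 0.14 ± 0.10 on day 28 (adjusted p = 0.27). Day 7 was above day 3 (0.28 ± 0.10, adjusted p = 0.049), though not after centering (0.15, adjusted p = 0.262) and not without any 1 of 5 of the 6 mice compared. In the comparison of day 7 with day 3, 1 of the 35 genes was higher and 2 lower, beside 18.5% and 6.62% of all probes, and after centering 0 were higher and 8 lower, beside 8.92% and 14.3%. Ercc2, a helicase of the TFIIH complex, the mismatch repair gene Pms2 and the end joining gene Xrcc6, which encodes Ku70, were not called against sham on any day, with day 3 changes of -0.036, -0.041 and 0.16. All 3 were called lower after centering on each day.

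On the deposited scaling Pms2, Parp1, Ercc2 and Rad17 varied least of the 35 genes across the study. Over the 21 mice the coefficient of variation was 3.98% for Pms2, 4.95% for Parp1, 5.23% for Ercc2 and 5.70% for Rad17, and at the other end 44.1% for Fancd2, 37.3% for Pole and 36.9% for Brca1. Means were 287 (Rad17) to 794 (Parp1) for the least variable genes, but 31.3 for Fancd2, 72.1 for Pole and 35.9 for Brca1. Counting error alone was 23.6% for Fancd2, 15.4% for Pole and 24.3% for Brca1 in their lowest samples. The median was 12.5% over the 35 genes and 17.6% over all tested probes, and 14 of the 35 (40%) were under 10%, against 29.2% of all probes. With centered samples the medians were 17.7% and 20.9% and the order changed. Fancg (10.05%), Hus1 (10.5%), Rpa1 (10.8%) and Rad9a (10.8%) then varied least, with Pms2 at 18.5% and Parp1 at 20.3%. A test over the 7 groups called 17 of the 35 genes on the deposited scaling, 31 after centering and 16 on both, beside 72.7% and 88.2% of all probes. Brca1 passed on the deposited scaling only (51.2 ± 11.3 on day 3 in PBS TBI mice and 26.7 ± 2.65 in sham mice, SD, n = 3).

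**Figure D3:**
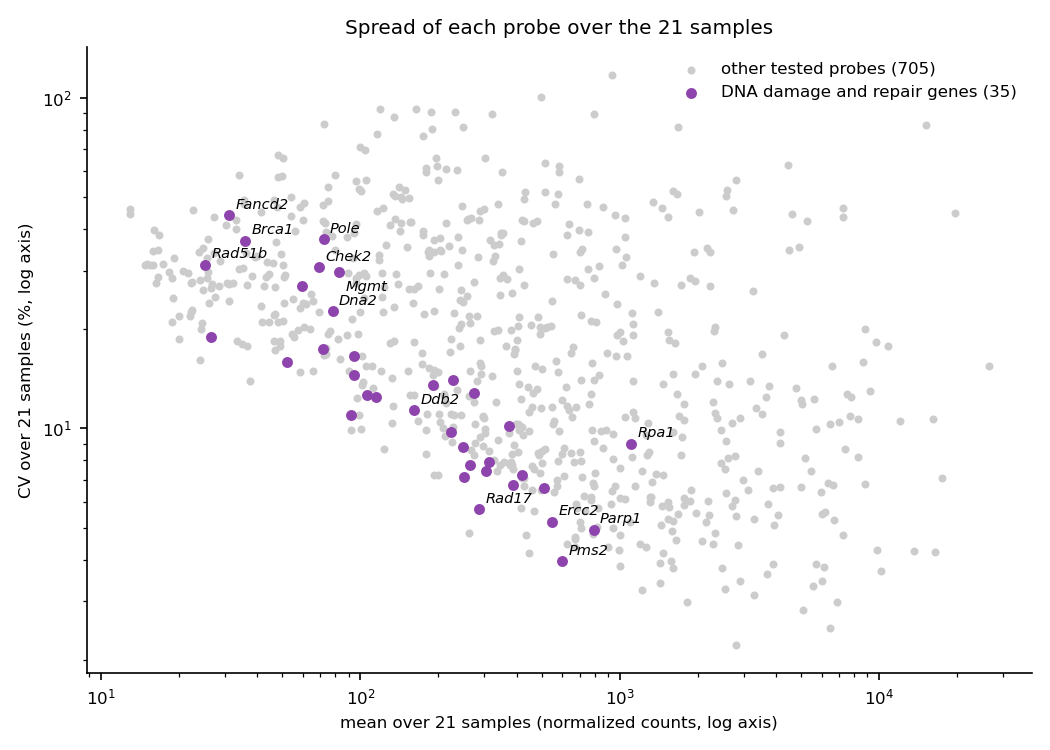
Coefficient of variation over the 21 mice (vertical axis, percent) against the mean normalized count (horizontal axis, log scale) for the 35 genes and for all tested probes on the deposited scaling. Of the 35 genes, Pms2, Parp1 and Ercc2 lie lowest (3.98% to 5.23%) and Fancd2 highest (44.1%).

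No difference between CR2-Crry and PBS passed the test for these genes on the deposited scaling. CR2-Crry TBI against PBS TBI called 0 of the 35 on each of days 3, 7 and 28, beside 0%, 7.43% and 0% of all probes, and the smallest adjusted p among the 35 was 0.999, 0.144 and 0.999. At an unadjusted p under 0.05 limma gave 0, 2 and 1 of them, beside 27, 211 and 15 of the 740 probes. The 95% intervals of the 35 differences reached as far as -0.67 and 0.93 for day 3, -0.98 and 0.77 for day 7, and -0.65 and 0.75 for day 28, so a change of 2-fold lay outside every interval. The whole interval lay within 0.5 of 0 for 29, 24 and 27 of the genes.

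On day 7 the lowest p belonged to Blm and Chek2. Blm measured 77.7, 80.7 and 82.3 in CR2-Crry TBI mice and 102, 104 and 83.8 in PBS TBI mice, with no overlap. The difference was -0.26 ± 0.11 (unadjusted p = 0.0323, adjusted 0.144; centered -0.096). Chek2 measured 57.4, 86.9 and 66.3 in CR2-Crry TBI mice and 84.8, 102 and 95.0 in PBS TBI mice, which overlapped (-0.44 ± 0.19, unadjusted p = 0.0347, adjusted 0.147; centered -0.27). Of the 35 genes 3 were below PBS TBI in every CR2-Crry mouse (Brca1, Blm and Pole) and 0 above, beside 29.5% and 4.05% of all probes. On that day the 13 microglia and macrophage markers summed to 38997 to 43455 in CR2-Crry TBI mice and 47854 to 58112 in PBS TBI mice, and 8 cell cycle and replication genes to 903 to 948 and 969 to 1258; their part in these values was not tested.

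On day 3 the lowest p was that of Ercc2, with 556, 540.1 and 599 in CR2-Crry TBI mice and 510.3, 526 and 528 in PBS TBI mice (0.11 ± 0.061, unadjusted p = 0.0766, adjusted 0.999). On day 28 it was that of Ddb2, with 157, 145 and 176 in CR2-Crry TBI mice and 172, 193 and 196 in PBS TBI mice (-0.23 ± 0.10, unadjusted p = 0.0321, adjusted 0.999). Neither was near the threshold after adjustment. After centering, Rad1 (0.25 ± 0.076, adjusted p = 0.0404) and Pms2 (0.22 ± 0.069, adjusted p = 0.0484) passed on day 7 as higher with CR2-Crry, against 8.51% of all probes. Their deposited values did not pass (Rad1 0.085, Pms2 0.048), and the scalings differ by -0.17 in that comparison. A test of whether the treatment difference changed between days called 0 of the 35 and 0% of all probes. In it 1 of the 35, Chek2, had an unadjusted p under 0.05 (0.0298, adjusted 0.27), beside 120 of the 740 probes.

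**Figure D4:**
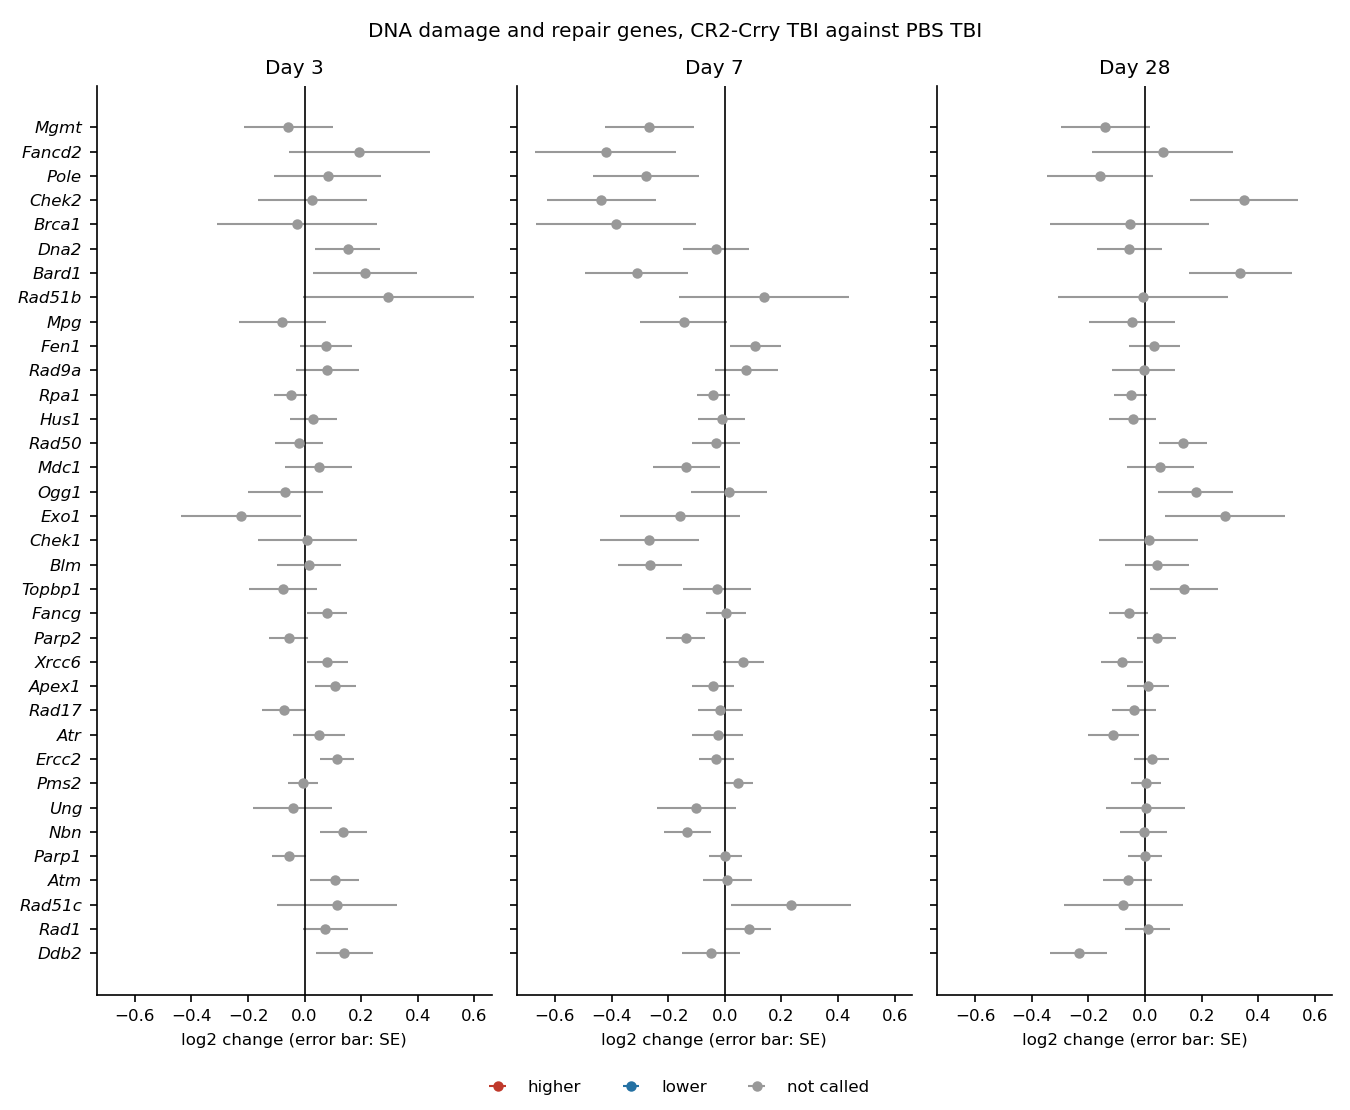
Log2 change of each of the 35 genes in CR2-Crry TBI against PBS TBI mice on days 3, 7 and 28 (dots, with SE bars; n = 3 per group; gray marks genes not called). The points lie on both sides of 0 on each day, between -0.44 for Chek2 on day 7 and 0.35 for Chek2 on day 28.

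Against sham, CR2-Crry TBI mice had 19 of the 35 genes higher on day 3, 10 on day 7 and 13 on day 28, with 0 lower on each day, beside 53%, 48% and 44.3% of all probes higher and 11.9%, 10.3% and 10.3% lower. After centering the counts were 5 higher and 21 lower on day 3 (24.5% and 53.1% of all probes), 1 and 26 on day 7 (23.2% and 52%), and 1 and 13 on day 28 (23.2% and 39.9%). These comparisons share the sham samples with those of PBS TBI. On day 28 the count of 13 fell to 7 without sham replicate 1 or 2 or CR2-Crry replicate 1, and to 8 without CR2-Crry replicate 3.

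Mgmt measured 103, 77.9 and 106 in CR2-Crry TBI mice on day 3, 81.9, 86.9 and 97.3 on day 7 and 84.0, 62.9 and 75.2 on day 28, all above the sham values of 29.9, 35.8 and 37.7. It was called higher on both scalings on each day (1.47 ± 0.16, 1.37 ± 0.16 and 1.10 ± 0.16; centered 0.82, 0.81 and 0.77). Chek2, Dna2, Fancd2 and Pole were also called on both scalings on day 3. Chek2 changed by 1.05 ± 0.19, with 77.8, 81.1 and 104 in CR2-Crry TBI mice. Dna2 changed by 1.03 ± 0.12, with 118, 93.9 and 107. Fancd2 changed by 1.49 ± 0.25, with 52.7, 36.3 and 68.2, and Pole by 1.36 ± 0.19, with 97.9, 108 and 127. All 12 of these CR2-Crry values were above every sham value. CR2-Crry TBI mice lay wholly above sham for 405, 385 and 352 of the 740 probes on days 3, 7 and 28, and for 20, 14 and 17 of the 35 genes. On day 28 Chek2 measured 65.8, 54.1 and 57.4 in CR2-Crry TBI mice and was called higher than sham on the deposited scaling (0.49 ± 0.19, adjusted p = 0.0388), though not after centering (0.16, adjusted p = 0.438).

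Other genes of the pathway were on the panel as well, and 17 of them were counted here. Further ones, such as H2ax and Rnf8, were also tested but were not among the 17. Of these 17 damage response and repair genes, 8 were higher and 1 lower on day 3 in PBS TBI against sham. On day 7, 8 were higher and 1 lower, and on day 28, 5 and 2. After centering 2 were higher and 12 lower, 0 and 13, and 0 and 11 on the 3 days. Over all probes 51.6% were higher and 13.2% lower on day 3, 57.3% and 9.46% on day 7, and 44.5% and 8.11% on day 28. With centering these shares were 26.5% and 52.3%, 25.9% and 54.5%, and 21.2% and 38%. The median changes of the 17 were 0.19, 0.20 and 0.093, beside 0.30, 0.36 and 0.21 for all probes. The highest on day 3 were Lig1, the replicative DNA ligase (1.00 ± 0.079; centered 0.40), Pcna, the sliding clamp (0.76 ± 0.055; centered 0.16), and Sesn2, a stress-induced p53 target (0.42 ± 0.10; centered -0.18). The lowest were Abl1, a tyrosine kinase (-0.70 ± 0.14; centered -1.30), Cdkn1a, the p21 cell cycle inhibitor (-0.11 ± 0.20; centered -0.71), and Sesn1 (-0.094 ± 0.075; centered -0.70). Abl1 passed on both scalings. Cdkn1a and Sesn1 did not pass on the deposited one.

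Genes of the cell cycle and of DNA replication were called most often on day 3. Of 8 tested, 6 were higher and 0 lower on day 3, 5 and 0 on day 7 and 2 and 1 on day 28. After centering 6 were higher and 2 lower, 2 and 3, and 0 and 2. Over all probes 51.6% were higher and 13.2% lower on day 3, 57.3% and 9.46% on day 7, and 44.5% and 8.11% on day 28. With centering these shares were 26.5% and 52.3%, 25.9% and 54.5%, and 21.2% and 38%. Top2a, the topoisomerase of dividing cells, had log2 changes of 3.33 ± 0.21, 2.07 ± 0.21 and 0.31 ± 0.21 on days 3, 7 and 28, of which the last did not pass. Rrm2, which supplies deoxynucleotides, had changes of 3.00 ± 0.18, 1.43 ± 0.18 and 0.073 ± 0.18, and again the last did not pass. E2f1, a transcription factor of the E2F family, was the 1 called lower on day 28 (-0.42 ± 0.15, adjusted p = 0.0262), and E2f1 and Cdc7, a kinase that fires replication origins, were called lower on all 3 days after centering. The 8 genes summed to 1794 to 2019 in PBS TBI mice on day 3, 969 to 1258 on day 7 and 772 to 798 on day 28, against 734 to 774 in sham mice. Their part in the changes of the repair genes was not tested.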

How the data were processed

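RNA of 21 mouse brain hemispheres was measured on an nCounter panel of 757 probes. The deposited values are a normalized signal: the paper states that nSolver was used for background thresholding and for scaling to housekeeping genes. No common floor was visible in the deposited values. The lowest value of a sample was 2.14 to 7.71 and was held by 1 to 3 probes. All 21 columns were used and 0 were left out. In each sample 1 step (0.786 to 1.255) divided at least 99.87% of values without remainder, within 0.0075, and values in steps summed to 750585 to 1023041 per sample, so that a value of 20 stands for about that many molecules and counting error alone is large near it. A symbol was taken where the probe annotation gave 1, which it did for 703 probes.

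Probes over 20 in at least 3 samples were tested (740). Limma 3.58.1 in R 4.3.3 fitted log2 values with no pseudocount, 1 mean per group over all 21 samples with the trend option, and Benjamini-Hochberg adjustment ran over the 740 probes of each contrast. With 3 mice a group, p-values rest on a spread among mice pooled over all 7 groups and drawn toward that of other probes. They do not measure the spread of the compared groups alone. No 2 samples held identical values. On simulated data with 200 changed probes, for the comparison of PBS TBI with sham on day 3, the fit called 73 of 100 changes of 0.5 and 96 of 100 of 1 (log2), and 3 of 540 unchanged probes. In the mice that comparison called 480 of the 740 probes. False calls that come from the scaling of samples were not tested. Python 3.11.15 with numpy 2.4.6, pandas 2.3.3 and matplotlib 3.10.9 handled the tables and figures.

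The alternatives were median-centered samples, no filter, a mean of at least 50, log2 of the value plus 20, no trend, sample weights, the groups of the contrast alone, the replicate number as a block, adjustment over probes with p under 0.05 alone, and leaving out each mouse in turn. Scaling every sample to the same sum of its values was added after the data were seen.

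The members, lists and named genes were chosen with earlier results of these data known. A gene was given with every value where it was called against sham in 1 direction on both scalings, was among the 4 highest or 4 lowest called changes of PBS TBI against sham, was called for treatment or between days, or had the smallest p of the 35 for treatment where none was called. Brca1, Bard1 and others were added as examples of their role. Promoter windows are RefSeq's (GRCm38.p6).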

Additional observations from a re-analysis of the deposited data

Results flagged for a closer look

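Of the 35 genes, 5 differed between days in PBS TBI mice by limma's test of the difference itself on the deposited scaling. These were 3 for day 7 against day 3, beside 25.1% of all probes, and 2 for day 28 against day 7, beside 45.1%. With centered samples 8 and 24 passed, and Ddb2 (adjusted p = 0.262) and Mgmt (adjusted p = 0.973) did not. Fen1 was lower on day 7 than on day 3 (log2 difference -0.27, adjusted p = 0.0363), in all 3 mice against all 3. Pole was lower on day 7 than on day 3 (-0.56, adjusted p = 0.0365), also in 3 of 3 mice. Ddb2 was higher on day 7 than on day 3 (0.28, adjusted p = 0.049), in 3 of 3 mice. Chek2 was lower on day 28 than on day 7 (-1.02, adjusted p = 0.000238), in 3 of 3 mice. Mgmt was lower on day 28 than on day 7 (-0.39, adjusted p = 0.0491), with overlapping values. The days also differ in the age of the mice, which cannot be told apart from time after injury.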

How the results depend on the processing

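The scaling of samples changed most. Of 59 called changes, 31 turned their sign with median-centered samples and 8 kept it but no longer passed. Changes of CR2-Crry TBI against sham were counted among the 59 only where both scalings called them alike, so centering could not turn or weaken those. Chek2 in CR2-Crry TBI mice on day 28 was thus not among them. No sign turned under the other alternatives except samples scaled to their sum, where 6 turned and 25 no longer passed; the cause was not tested. With centered samples the PBS TBI against sham changes on day 3 that turned were Topbp1 -0.28, Hus1 -0.24, Rad9a -0.15, Mdc1 -0.24, Rad50 -0.24, Blm -0.25, Fancg -0.29, Rpa1 -0.22, Mpg -0.057, Ogg1 -0.24, Parp2 -0.43 and Fen1 -0.13. With centered samples the PBS TBI against sham changes on day 7 that turned were Hus1 -0.36, Rad9a -0.44, Mdc1 -0.36, Rad50 -0.39, Bard1 -0.30, Blm -0.38, Dna2 -0.15, Fancg -0.41, Rpa1 -0.46, Apex1 -0.54, Ogg1 -0.36, Parp2 -0.56 and Pole -0.0079. With centered samples the PBS TBI against sham changes on day 28 that turned were Atr -0.11, Hus1 -0.065, Rad9a -0.053, Rad50 -0.11, Fancg -0.067 and Rpa1 -0.14. With samples scaled to their sum Parp2 was -0.036 on day 3, and on day 7 the values were Rad9a -0.049, Fancg -0.026, Rpa1 -0.073, Apex1 -0.15 and Parp2 -0.17.

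Counts of called genes higher and lower were 5 and 19 (day 3), 2 and 26 (day 7) and 1 and 12 (day 28) with centered samples in PBS TBI against sham, and 10 and 7, 3 and 13, and 3 and 1 with samples scaled to their sum. In CR2-Crry TBI against sham they were 5 and 21, 1 and 26, and 1 and 13 with centered samples, and 10 and 6, 3 and 11, and 6 and 1 with samples scaled to their sum. Sample weights gave 1 lower on day 3, and the groups of the contrast alone gave 7 higher on day 28. In CR2-Crry against PBS, centering gave 2 higher on day 7, and adjusting over probes with p under 0.05 alone, which calls each of them, gave 2 lower on day 7 and 1 on day 28. PBS TBI day 7 against day 3 gave 0 higher and 8 lower with centering, 0 and 9 with samples scaled to their sum, and 0 and 0 with the groups of the contrast alone. PBS TBI day 28 against day 7 gave 23 higher and 1 lower with centering, 16 and 1 with samples scaled to their sum, and 1 lower without a filter or with the groups of the contrast alone. The test over the 7 groups gave 31 with centering.

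Leaving out 1 mouse gave these ranges, higher then lower. PBS TBI against sham gave 16 to 19 and 1 to 1 (day 3), 10 to 16 and 0 to 1 (day 7), and 6 to 11 and 0 to 0 (day 28). CR2-Crry TBI against sham gave 17 to 21 and 0 to 1, 8 to 10 and 0 to 1, and 7 to 10 and 0 to 0. PBS TBI day 7 against day 3 gave 0 to 2 and 0 to 2, day 28 against day 7 0 to 1 and 1 to 3, and the test over the 7 groups 15 to 18. CR2-Crry against PBS stayed at 0.

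Deviations of samples with the same replicate number correlated at -0.40 to 0.23 (median -0.0031, 63 pairs). For samples with different numbers they correlated at -0.26 to 0.33 (median 0.0067, 126 pairs). In sham mice the number also follows age, and whether the numbers stand for anything else was not tested. With the replicate number as a block, day 7 against day 3 gave 0 higher and 1 lower and day 28 against day 7 gave 1 lower, 5 named changes no longer passed, and 54 kept their call. The planned count tests on molecules recovered from the steps were not run, since the deposited values are normalized and were kept as such. Depth limits Rad51b, Brca1, Exo1 and Fancd2, with 12 to 18 molecules in their lowest samples, where counting error alone is 23.6% to 28.9%.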
